A study of Mus musculus with 2 samples.

Results

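The elastic fibre and microfibril genes described here were 10 gene symbols: Eln, Fbn1, Fbln1, Fbln2, Fbln5, Mfap4, Mfap5, Emilin1, Lox and Loxl1. They were taken by symbol from a table of 28625 symbols, each matched 1 row, and the rule for choosing them used no measured value. The data were single-cell transcript counts from the tibialis anterior, a muscle of the lower leg, of C57B/6 mice aged 12 weeks. 1 library came from uninjured muscle. The other came from muscle taken 1 day (24 hours) after 1.2% barium chloride, which kills muscle fibres, was injected into it. The injection is named in the treatment label of both libraries, so whether the uninjured muscle was injected with anything is not given. The number of mice behind each library is also not given, and with 1 library per condition every difference below compares 2 libraries, with no test and no replicate check.

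An elastic fibre has a core of cross-linked elastin (Eln) laid on a scaffold of microfibrils whose main rod is fibrillin-1 (Fbn1). Microfibril-associated proteins (Mfap4, Mfap5), fibulins (Fbln1, Fbln2, Fbln5) and EMILIN-1 (Emilin1) join the microfibrils, the elastin and the cell surface, and lysyl oxidases (Lox, Loxl1) oxidise lysines so that elastin and collagen molecules become cross-linked. In muscle these proteins lie in the connective tissue around fibres, in tendon and in the walls of vessels.

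The sequences just before the start sites of Fbln1 and Fbln5 are shown because both fibulins were several-fold lower after injury in fibro-adipogenic progenitor-like cells. Each is the 250 bases before the start listed by RefSeq (GRCm38.p6; the first listed start where a gene has more than 1), 5′ to 3′ on the gene's strand, with matches to the GC box (GGGCGG) and the CCAAT box (CCAAT) in capitals on either strand.
Fbln1, chr15:85205699-85205948, plus strand: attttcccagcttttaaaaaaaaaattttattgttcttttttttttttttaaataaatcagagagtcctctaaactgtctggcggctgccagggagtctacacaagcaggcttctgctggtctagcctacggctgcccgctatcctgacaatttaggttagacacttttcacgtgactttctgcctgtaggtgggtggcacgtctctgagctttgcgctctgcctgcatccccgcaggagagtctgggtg
Fbln5, chr12:101819120-101819369, minus strand: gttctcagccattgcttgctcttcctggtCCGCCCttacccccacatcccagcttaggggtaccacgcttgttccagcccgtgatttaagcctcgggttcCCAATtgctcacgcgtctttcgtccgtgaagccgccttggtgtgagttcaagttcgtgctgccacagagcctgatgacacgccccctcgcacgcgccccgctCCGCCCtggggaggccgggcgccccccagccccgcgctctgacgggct

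The Fbln1 stretch had a GC content of 46.4% and no match to either motif, and the Fbln5 stretch 65.2% with 2 GC boxes and 1 CCAAT box. Over 32817 promoters of the same length the median GC content was 52.4%, a GC box was present in 32.7% and a CCAAT box in 33.8%. Of the 5 genes with a listed sequence, which were Fbln1, Fbln2, Fbln5, Fbn1 and Emilin1, 3 held a GC box (Fbn1, Fbln2 and Fbln5). The windows of Fbln2, Fbn1 and Emilin1 lie inside the gene spans of GENCODE, whose listed starts differ from those of RefSeq, so they are not upstream of the gene in both annotations. The TATA box (TATAAA), the AP-1 motif (TGANTCA) and the TEAD motif (GGAATG), searched on both strands, had 0 matches in the 5; they were present in 12.4%, 6.75% and 12.6% of all promoters. The E-box (CANNTG) was found in 4 of the 5 and in 66.2% of all, and is not capitalised. A match describes letters in this window and is not a measured binding site.

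The uninjured library held 5581 cell barcodes with 22994502 unique molecular identifiers (UMIs, 1 per captured transcript molecule), and the injured library 4489 barcodes with 39014762. The median per barcode was 3237 and 7282 UMIs, so the injured cells were sampled more deeply. After removal of 178 and 64 barcodes with under 200 genes (96.6% and 96.0% of their UMIs were haemoglobin), 18 and 4 with over 20% mitochondrial UMIs, and 249 and 161 with the highest doublet scores, 5139 and 4260 cells remained. The libraries also differed in sex-linked genes: Xist had 16575 UMIs before and 0 after injury, and 4 Y-linked genes had 0 and 4456, so sex and injury cannot be told apart. They shared 33 barcode sequences.

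Positions are those of the mm10 genome. Elastin is at chr5:134702593-134747323 (minus strand), Fbn1 at chr2:125300594-125507993 (minus), Fbln1 at chr15:85205949-85286535 (plus), Fbln2 at chr6:91212455-91272540 (plus) and Fbln5 at chr12:101746565-101819055 (minus). Mfap4 is at chr11:61485431-61488900 (plus), Mfap5 at chr6:122505845-122529290 (plus), Emilin1 at chr5:30913402-30921277 (plus), Lox at chr18:52516067-52529867 (minus) and Loxl1 at chr9:58287738-58313186 (minus). Elastin overlaps the antisense gene Gm30003, Fbn1 overlaps Gm9913, and Mfap4 overlaps Mapk7, each on the opposite strand. The sources used here do not say whether the counting used strand, so reads of these pairs may not be fully separated.

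Cells were grouped by clustering with the 10 genes and their pathway genes held out, and clusters were named from marker lists. This gave 782 uninjured and 413 injured fibro-adipogenic progenitor-like (FAP-like) cells, the Pdgfra-bearing stromal cells of muscle, 444 and 163 tenocyte-like cells, 2732 and 454 endothelial-like cells, and 88 and 33 pericyte and smooth muscle-like cells. Levels are CPM, the UMIs of a gene divided by all UMIs of the class in the usual depth scaling, and all intervals are 95% intervals for counting error only. A gene is called higher or lower where its CPM differs at least 2-fold and it has at least 20 UMIs in the class. The summed CPM of the 13 FAP markers was 67369 in uninjured and 12182 in injured FAP-like cells, that of the 12 tenocyte markers 31193 and 24174 in tenocyte-like cells, and that of the 12 endothelial markers 10847 and 6645 in endothelial-like cells. Injured tenocyte-like cells lay almost all in cluster 17 (162 cells), which carried 10 of the 12 tenocyte and 10 of the 13 FAP markers. The uninjured clusters 14 and 19 carried 11 and 12 tenocyte markers and 9 and 6 FAP markers. The part of these marker shifts and overlaps in the results below was not tested.

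In the uninjured library most UMIs of the 10 genes came from 3 classes. FAP-like cells held 71.1% of all Fbn1 UMIs, 78.8% of Mfap5 and 67.2% of Loxl1. Tenocyte-like cells held 90.2% of Mfap4, 60.8% of Fbln1 and 77.2% of Lox. Endothelial-like cells, the most numerous class, held 40.4% of Eln, 57.4% of Fbln2, 45.1% of Fbln5 and 37.7% of Emilin1. In the injured library FAP-like cells held the highest share for Fbln2 and Emilin1 as well, at 81.3% and 31.6%, and the other 8 genes kept the same leading class.

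**Figure D1:**
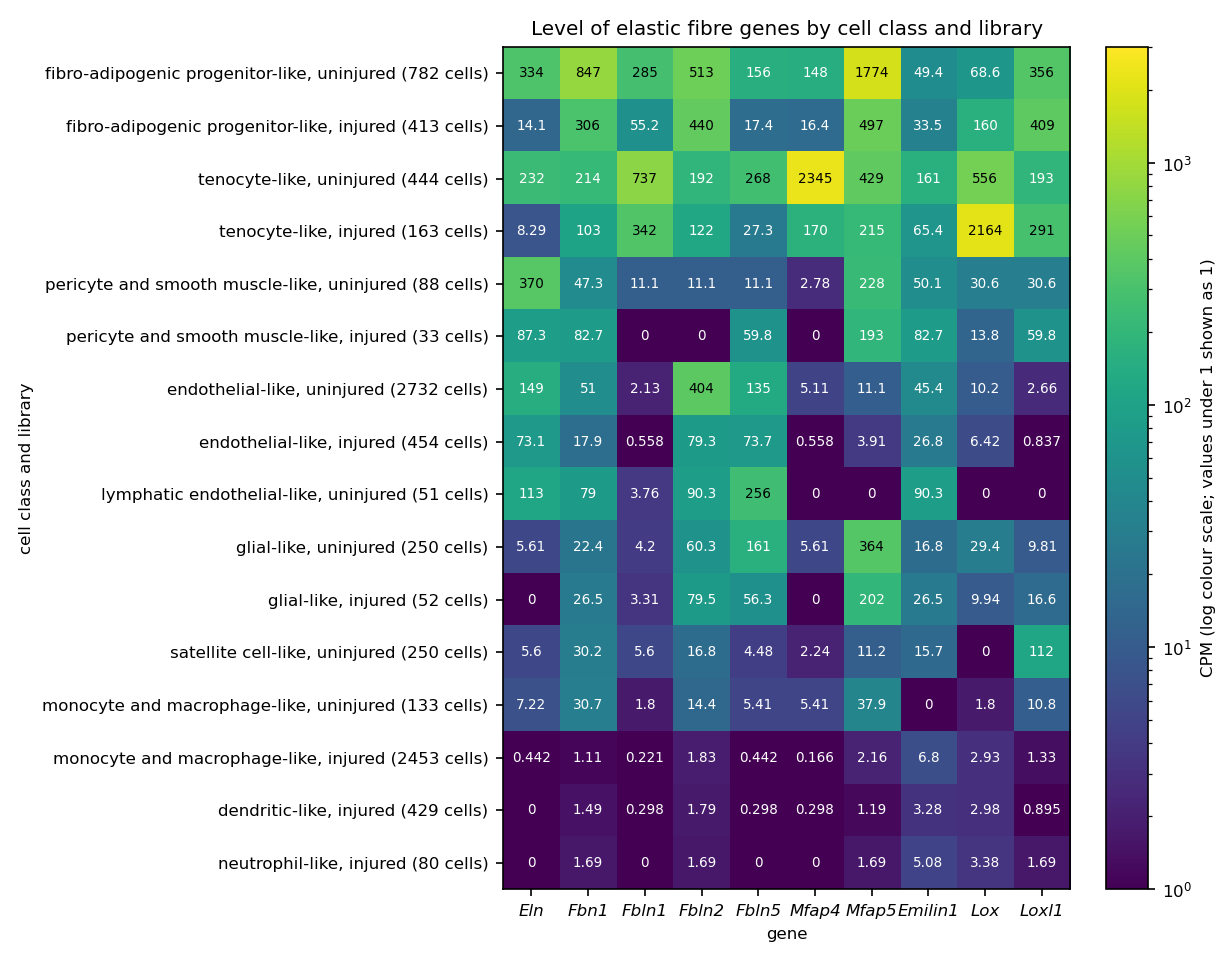
CPM of the 10 genes (columns) in each cell class and library with at least 30 cells (rows), as numbers on a log colour scale. The 4 stromal rows at the top hold the highest levels of most genes, with Mfap4 at 2345 CPM in uninjured tenocyte-like cells and Lox at 2164 CPM in injured ones, and the injured myeloid rows at the bottom reach at most 6.80 CPM.

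Monocyte and macrophage-like cells served as a measure of background from free RNA, since they are not known as a source of these genes. Their highest level was 37.9 CPM in the uninjured library (Mfap5, 133 cells, 12 of its 21 UMIs in 1 cell) and 6.80 CPM in the injured library (Emilin1, 2453 cells). Their median depth was 3760 and 6992 UMIs per cell, beside 3962 and 13966 in FAP-like and 4566 and 10797 in tenocyte-like cells. A level near that of the same gene in macrophages is read as background. The order of genes differed, however: over all injured cells Emilin1 was at 18.9 CPM and Lox at 152 CPM. In injured macrophages they were at 6.80 CPM and 2.93 CPM. Whether macrophage Emilin1 is free RNA was not tested. Of 6 genes tested in macrophages 4 were lower and 0 higher, beside 23.6% and 8.53% of all genes, and the median log2 ratio of the 6 was -3.01. Emilin1, with 0 uninjured and 123 injured UMIs, was not called, because its uninjured count was raised to 3 (log2 ratio 0.33).

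Across the FAP-like class, 6 of the 10 genes were at least 2-fold lower in the injured library and 1 was higher. Among all 11472 genes tested in this class, 29.3% were lower and 14.7% higher by the same rule. The median log2 ratio of injured over uninjured was -1.65 for the 10 genes and -0.29 for all genes. In tenocyte-like cells the count was again 6 lower and 1 higher, where 20.9% of all 9673 genes were lower and 9.71% higher, with medians of -1.08 and -0.21. Over the alternative settings the tenocyte-like count of lower genes ran from 4 to 7. The genes lower in both classes were Eln, Fbn1, Fbln1, Fbln5 and Mfap4; of these 2 classes, Mfap5 was called lower in FAP-like cells only and Emilin1 in tenocyte-like cells only, and neither difference between the classes was tested. Lox was the higher gene in both.

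**Figure D2:**
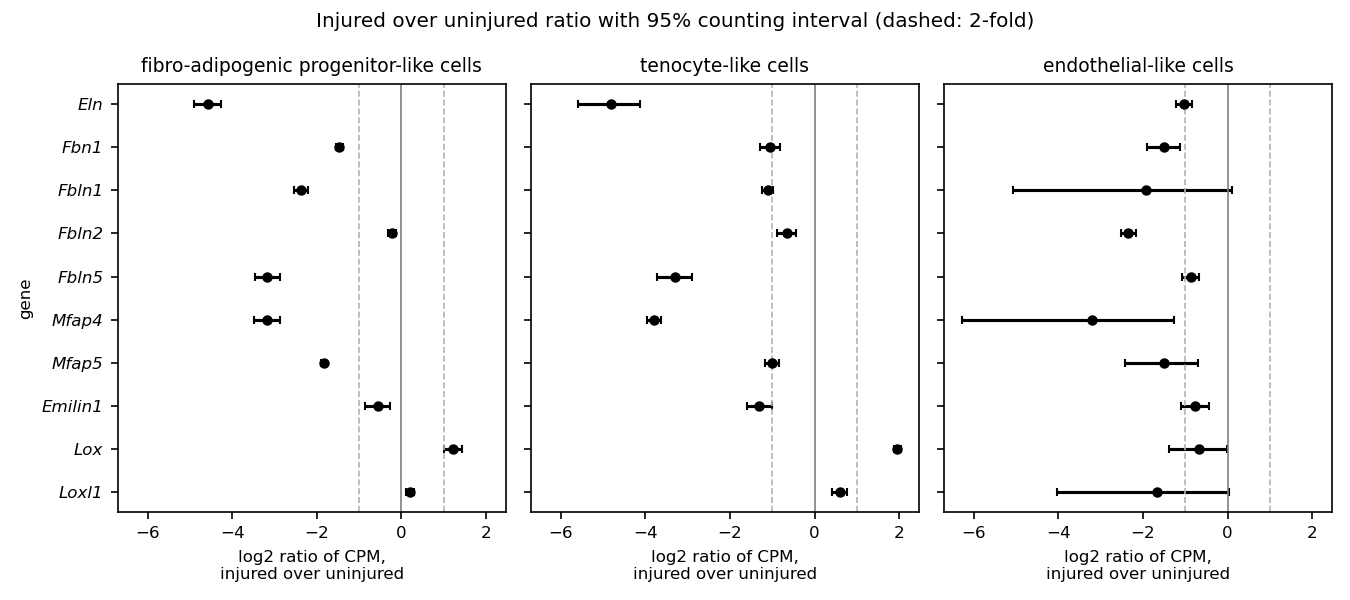
Log2 ratio of CPM, injured over uninjured, for each of the 10 genes in FAP-like, tenocyte-like and endothelial-like cells; points are ratios, bars 95% counting intervals, and dashed lines mark 2-fold. Eln lies farthest to the left in the 2 stromal panels (log2 -4.57 and -4.80) and Lox is the only gene to the right of the upper 2-fold line there.

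Elastin itself was the gene with the largest fold difference in both stromal classes. In FAP-like cells it stood at 334 CPM (interval 315 to 353, 1181 UMIs) in the uninjured and 14.1 CPM (11.3 to 17.2, 92 UMIs) in the injured library. That is 23.7-fold lower (interval 19.2 to 29.7). The intervals lie far apart, and the injured level is above that of injured macrophages at 0.442 CPM.

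In tenocyte-like cells Eln was at 232 CPM in the uninjured and 8.29 CPM in the injured library, 28.0-fold lower (17.3 to 48.3). The uninjured level rested on 1 cluster: 533 of the 548 UMIs lay in cluster 14 (338 CPM), which held 0 injured cells, and the other main uninjured cluster, 19, was at 13.1 CPM. The injured value rests on 17 UMIs in 5 of 163 cells, 8 of them in 1 cell, and 92 of the 548 uninjured UMIs also came from 1 cell. With the 10 genes allowed into the clustering the log2 ratio was -7.29, and as a mean of per-cell values it was -3.20, against -4.80 here. The direction was the same in each.

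Elastin in pericyte and smooth muscle-like cells, the contractile cells of vessel walls, was at 370 CPM uninjured and 87.3 CPM injured, 4.24-fold lower (2.61 to 7.26). It was the 1 gene of 5 tested that was called lower in this class, with 0 higher, beside 12.8% and 12.7% of all genes. Only 33 injured cells belong to this class, 27 of them in cluster 8d, led by Colec11 and Actg2. The other cluster of the class, 8e, was led by Pln, Myh11 and Acta2. Clusters 8a, led by Kcnj8 and Abcc9, and 8c, led by Rgs5 and Abcc9, were named mixed and left out. They held 89 and 77 uninjured cells, so the class values describe 8d and 8e only and may not cover pericytes. Cluster 8b, led by Apln and Gpr176, was also left out as mixed and held 90 injured cells and 1 uninjured cell. It carried 11 pericyte and smooth muscle markers and 12 endothelial markers. Over all mixed cells Eln was at 96.8 CPM in 273 uninjured and 14.7 CPM in 130 injured cells. Within cluster 8d Eln stood at 688 CPM in 37 uninjured and 68.2 CPM in 27 injured cells. The other genes tested in mural cells lay within 2-fold, with Mfap5 at 228 CPM and 193 CPM (33 of 42 injured UMIs in 1 cell), Fbn1 at 47.3 CPM and 82.7 CPM, Emilin1 at 50.1 CPM and 82.7 CPM, and Loxl1 at 30.6 CPM and 59.8 CPM. Within cluster 8d, however, Mfap5 was at 671 CPM and 239 CPM, 2.81-fold lower (1.91 to 4.19), with 37 of 88 uninjured and 27 of 33 injured mural cells in that cluster. Fbln1, Fbln2, Fbln5, Mfap4 and Lox had too few UMIs in the class. Uninjured Eln levels in the mural and FAP-like classes had overlapping intervals, and tenocyte-like, endothelial-like (149 CPM) and lymphatic endothelial-like cells (113 CPM, 51 cells) followed.

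Fibrillin-1, the microfibril rod, was at 847 CPM (817 to 877) in uninjured and 306 CPM (293 to 320) in injured FAP-like cells, 2.76-fold lower (2.61 to 2.93). This difference rested on 1 uninjured cluster. Cluster 16, led by Mrgprg, Smpd3 and Pi16 with 253 uninjured cells, held Fbn1 at 2046 CPM, while cluster 7, led by Myoc, Dpep1 and Gdf10 with 456 cells, held 383 CPM. The injured cluster 10, led by Cxcl5, Il1rl1 and Mmp3 with 404 cells, held 303 CPM. Without cluster 16 the log2 ratio of Fbn1 was -0.15 instead of -1.47, and the call was lost. Cluster 16 held 3 injured cells, so a like-for-like comparison of it was not possible.

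In tenocyte-like cells Fbn1 was at 214 CPM and 103 CPM, 2.07-fold lower (1.76 to 2.44), just past the 2-fold line. It held in 7 of 10 alternative settings. That was also so for Fbln1 in this class, described below.

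Mfap5, which encodes the microfibril-associated glycoprotein MAGP-2, was at 1774 CPM (1731 to 1819) in uninjured and 497 CPM (480 to 515) in injured FAP-like cells, 3.57-fold lower (3.42 to 3.72). Its pattern over clusters resembled that of Fbn1, at 3378 CPM in cluster 16, 1291 CPM in cluster 7 and 491 CPM in cluster 10. Without cluster 16 it was still called lower, at a log2 ratio of -1.15. In tenocyte-like cells Mfap5 was at 429 CPM and 215 CPM, just short of 2-fold.

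Mfap4, a fibrinogen-domain protein that binds elastin and microfibrils, was mostly a tenocyte transcript. It stood at 2345 CPM (2283 to 2407) in uninjured and 170 CPM (152 to 189) in injured tenocyte-like cells, 13.8-fold lower (12.4 to 15.4). The share of these cells with at least 1 Mfap4 UMI was 89.0% and 50.9%, although the injured cells were deeper. In FAP-like cells Mfap4 was at 148 CPM and 16.4 CPM, 9.07-fold lower (7.35 to 11.3). There it belonged to cluster 7, with 245 CPM, while cluster 16 stood at a ratio of 0.0694 (0.0408 to 0.111) to cluster 7. Of the 525 uninjured Mfap4 UMIs in FAP-like cells, 492 lay in cluster 7. That cluster held 3 injured cells, and a setting without it was not run.

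The 3 fibulins differed in their ratios. Fbln5, whose upstream sequence is printed above with that of Fbln1 and which tethers elastin to cell-surface integrins, was at 156 CPM in uninjured and 17.4 CPM in injured FAP-like cells, 8.98-fold lower (7.33 to 11.1). In tenocyte-like cells it was at 268 CPM and 27.3 CPM, 9.80-fold lower (7.45 to 13.1). The injured clusters of both classes lay below the 2 largest uninjured clusters of their class.

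Fbln1, a fibulin found in elastic fibre cores and basement membranes, was at 285 CPM and 55.2 CPM in FAP-like cells, 5.17-fold lower (4.58 to 5.85). Of its 1010 uninjured UMIs there, 871 lay in cluster 7, which held 3 injured cells. Cluster 16 stood at a ratio of 0.227 (0.183 to 0.278) to cluster 7, and a setting without cluster 7 was not run. In tenocyte-like cells Fbln1 was at 737 CPM and 342 CPM, 2.15-fold lower (1.97 to 2.36). It differed between uninjured clusters: 1027 CPM in cluster 14, led by Wif1, Chad and Fmod, against 150 CPM in cluster 19, led by Col22a1 and Ptx4. The injured tenocyte-like cluster 17, led by Prg4 and Angptl7, held 342 CPM, between these 2 levels.

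Fbln2, which binds fibrillin and basement membrane proteins, was at 513 CPM (489 to 537) in uninjured and 440 CPM (424 to 456) in injured FAP-like cells. The log2 ratio was -0.22 (-0.31 to -0.14), an interval that excludes a 2-fold difference for these libraries. In tenocyte-like cells it was at 192 CPM and 122 CPM, with a log2 ratio of -0.66. The endothelial values below were different.

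Emilin1, which encodes a glycoprotein at the border of elastin and microfibrils, was called lower in tenocyte-like cells and in no other class tested. In FAP-like cells it was at 49.4 CPM and 33.5 CPM, a log2 ratio of -0.56 that was not called. In tenocyte-like cells it was at 161 CPM and 65.4 CPM, 2.47-fold lower (2.02 to 3.02). Its highest cluster level there was 260 CPM in the Col22a1-led cluster 19, against 114 CPM in cluster 14. Without cluster 19 the log2 ratio was -0.80 and the call was lost.

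**Figure D3:**
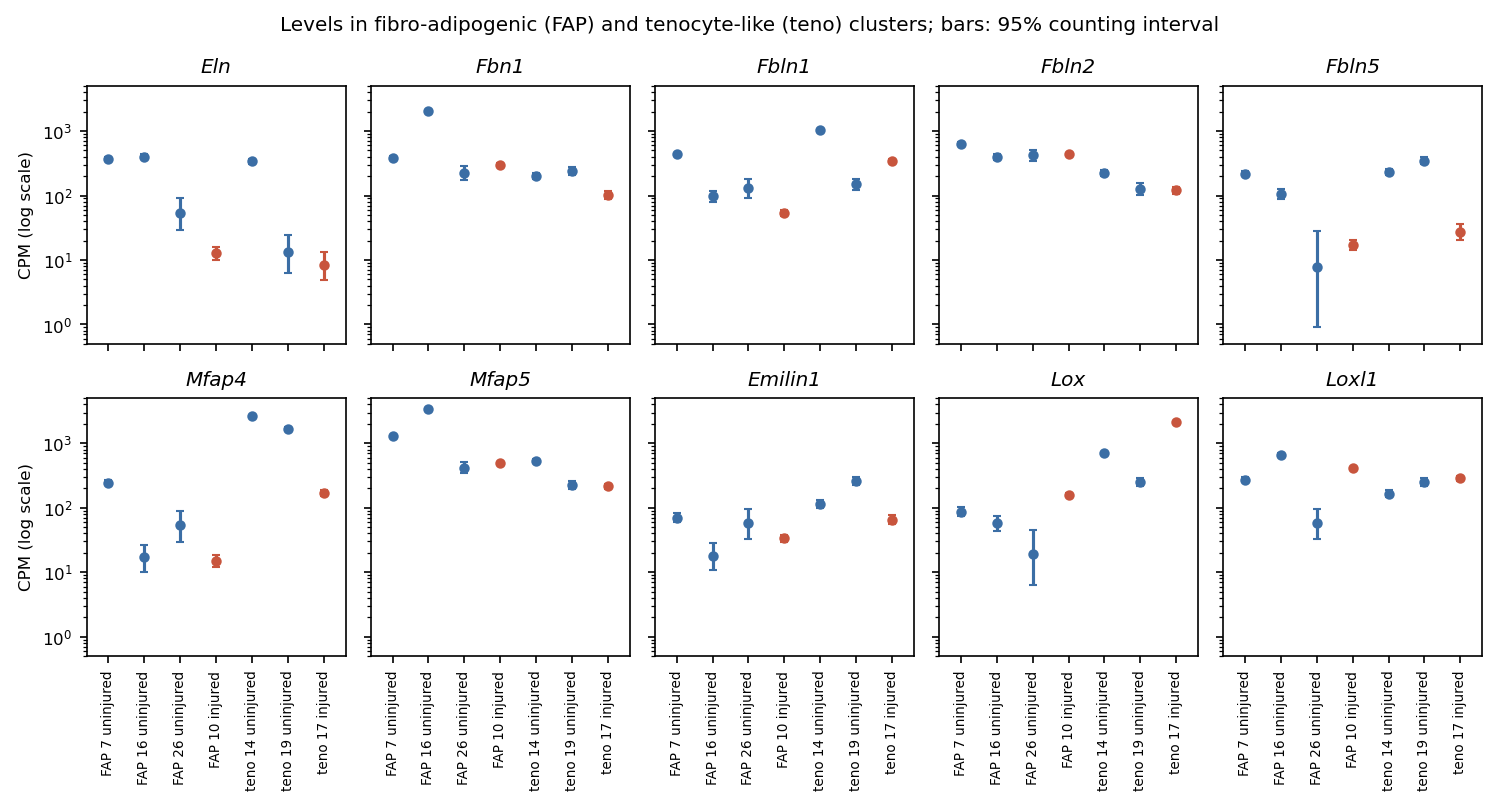
CPM (log scale) of the 10 genes in the main clusters of FAP-like cells (7, 16, 26, 10) and tenocyte-like cells (14, 19, 17); blue is uninjured, red injured, and bars are 95% counting intervals. Fbn1 is high in cluster 16 alone (2046 CPM), Eln is high in cluster 14 (338 CPM) and low in cluster 19 (13.1 CPM), and Lox is highest in the injured cluster 17 (2171 CPM).

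Lox, which oxidises lysines in elastin and collagen, was the 1 gene called higher in both stromal classes. It was at 556 CPM (526 to 587) in uninjured and 2164 CPM (2101 to 2228) in injured tenocyte-like cells, 3.89-fold higher (3.66 to 4.14). At least 1 Lox UMI was seen in 72.1% and 98.8% of these cells. With every cell thinned to 1800 UMIs, the shares were 52.3% and 87.1%. Among uninjured clusters Lox was at 694 CPM in cluster 14 and 255 CPM in cluster 19, and both lay below cluster 17.

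In FAP-like cells Lox was at 68.6 CPM and 160 CPM, 2.33-fold higher (2.03 to 2.69). When cells were classed singly by marker score in place of by cluster, the log2 ratio was 0.95 and the call was lost. Injured macrophages held 2.93 CPM of Lox, so the injured stromal values lie well above that background.

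Loxl1, the lysyl oxidase tied to elastic fibre upkeep, stood above its uninjured level in both stromal classes, short of 2-fold. It was at 356 CPM (336 to 376) in uninjured and 409 CPM (394 to 425) in injured FAP-like cells, with a log2 ratio of 0.20 (0.11 to 0.30). In tenocyte-like cells it was at 193 CPM and 291 CPM, a log2 ratio of 0.60 (0.42 to 0.77). Without cluster 16, where uninjured Loxl1 was 656 CPM, the FAP-like log2 ratio was 0.84, still under 2-fold.

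The make-up of the 10-gene total differed between the libraries. In tenocyte-like cells the total was 5326 CPM uninjured and 3507 CPM injured; Mfap4 made up 44.0% and 4.84% of it, and Lox 10.4% and 61.7%. In FAP-like cells the total was 4531 CPM and 1949 CPM. Mfap5 made up 39.2% and 25.5% of that total, Eln 7.36% and 0.721%, and Loxl1 7.85% and 21.0%. At 1800 UMIs per cell, 24.9% of uninjured FAP-like cells (195 of 782, interval 21.9% to 28.1%) and 5.57% of injured ones (23 of 413, 3.56% to 8.24%) had UMIs of at least 5 of the 10 genes. The same shares in tenocyte-like cells were 29.5% (131 of 444) and 9.20% (15 of 163).

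Within uninjured stroma the 10 genes did not share 1 pattern. Relative to cluster 7, the Pi16-bearing cluster 16 held Fbn1 at a ratio of 5.35 (4.92 to 5.81), Mfap5 at 2.62 and Loxl1 at 2.41, but Fbln1 at 0.227 and Emilin1 at 0.256. Eln was similar in both, at 400 CPM and 368 CPM. Relative to the Col22a1-led cluster 19, cluster 14 held Eln at a ratio of 25.7 (13.9 to 54.0) and Fbln1 at 6.85 (5.66 to 8.36), but Emilin1 at 0.436 (0.355 to 0.537). Eln in cluster 19 was 13.1 CPM on 10 UMIs in 157 cells, near the 7.22 CPM of uninjured macrophages.

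In endothelial-like cells 7 of the 10 genes were lower by the 2-fold rule and 0 higher, where 20.4% of all 11255 genes were lower and 10.5% higher. The lower count was 3 with cells thinned to 1800 UMIs and 4 when cells were classed singly by marker score. The median log2 ratio was -1.43 for the 10 genes and -0.20 for all genes. For 4 of the 7 lower genes, Fbln1, Mfap4, Mfap5 and Loxl1, the class level was at most 11.1 CPM in the uninjured library, below the upper limit of the same gene's interval in uninjured macrophages, so those calls are not read as endothelial expression. Eln, Fbln2, Fbln5 and Emilin1 lay above macrophages in both libraries. Fbn1 did so in the injured library, but in the uninjured library its class interval (46.6 to 55.8 CPM) overlapped that of macrophages (17.9 to 49.1 CPM). Of the 17 Fbn1 UMIs of uninjured macrophages, 10 were in 1 cell. By cluster, uninjured Fbn1 was at 144 CPM in cluster 11 and 129 CPM in cluster 22, above that interval, and at 15.3 CPM in cluster 4. Within cluster 11 it was 2.47-fold lower (1.70 to 3.68) in the injured library, and within cluster 22 the ratio was 0.729 (0.374 to 1.33).

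Fbln2 was at 404 CPM (391 to 417) in uninjured and 79.3 CPM (70.3 to 89.0) in injured endothelial-like cells, 5.10-fold lower (4.52 to 5.77). Fbn1 was at 51.0 CPM and 17.9 CPM, 2.86-fold lower (2.20 to 3.77). Eln was at 149 CPM and 73.1 CPM, 2.03-fold lower (1.78 to 2.33), and 49 of its 262 injured UMIs came from 1 cell. That call held in 5 of 9 alternative settings, and the smallest log2 ratio was -0.61 in place of -1.02. Fbln5 was at 135 CPM and 73.7 CPM and Emilin1 at 45.4 CPM and 26.8 CPM, both short of 2-fold. Uninjured lymphatic endothelial-like cells held Fbln5 at 256 CPM and Emilin1 at 90.3 CPM, and the injured library had 5 such cells.

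The clusters behind these class values were not the same in the 2 libraries. Most uninjured cells lay in clusters 1 and 4 (990 and 740 cells, led by Timp4, Car4 and Aqp1), 6 (451 cells, Rbp7 and Hey1), 11 (346 cells, Selp and Vwf) and 22 (113 cells, Gkn3, Gja5 and Sema3g). In the injured library 327 of 454 cells lay in cluster 13, led by Pgf and Apln. Injured cells of cluster 13 held Eln at 12.1 CPM and Fbln2 at 26.5 CPM, below each of those uninjured clusters. Fbln5 was at 23.4 CPM there, above clusters 1 and 4 and below clusters 6, 11 and 22. Cluster 13 also held 29 uninjured cells, with Fbln2 at 161 CPM, so that Fbln2 was 6.08-fold lower (3.40 to 10.3) within it. The ratio within cluster 13 was 0.337 (0.119 to 1.32) for Eln, on 4 and 31 UMIs, and 0.522 (0.212 to 1.67) for Fbln5, on 5 and 60.

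Cluster 22, whose top 10 genes include the arterial genes Gja5, Sema3g and Bmx, was the highest uninjured endothelial-like cluster for Eln (713 CPM), Fbln5 (958 CPM), Fbln2 (965 CPM) and Lox (129 CPM). It was present in both libraries, with 113 and 20 cells. Within it Eln was at 713 CPM and 1004 CPM, a ratio of 1.41 (1.15 to 1.72), and Fbln5 at 958 CPM and 857 CPM, a ratio of 0.894 (0.727 to 1.09). Fbln2 within it was 2.72-fold lower (2.04 to 3.69), at 965 CPM and 355 CPM.

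Cluster 11, led by Selp, Plvap and Vwf, held Eln at 470 CPM in 346 uninjured and 99.0 CPM in 56 injured cells, 4.75-fold lower (3.61 to 6.35). Fbln2 there was at 545 CPM and 149 CPM, 3.67-fold lower (2.93 to 4.66). In cluster 4, with 740 and 24 cells, Fbln2 was at 289 CPM and 251 CPM, a ratio of 0.866 (0.598 to 1.22). The Eln intervals of the injured over uninjured ratio in clusters 22 and 11 did not overlap, with 1.15 to 1.72 in the first and 0.157 to 0.277 in the second. They hold counting error only, on 20 and 56 injured cells, and leave out the spread between cells. The cluster of the 1 cell with 49 of the 262 injured endothelial Eln UMIs is not given here, and the difference between the clusters was not tested. In the uninjured clusters 1 and 4 Eln was 40.8 CPM and 33.1 CPM and Fbln5 8.68 CPM and 3.45 CPM, while Fbln2 was 278 CPM and 289 CPM.

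**Figure D4:**
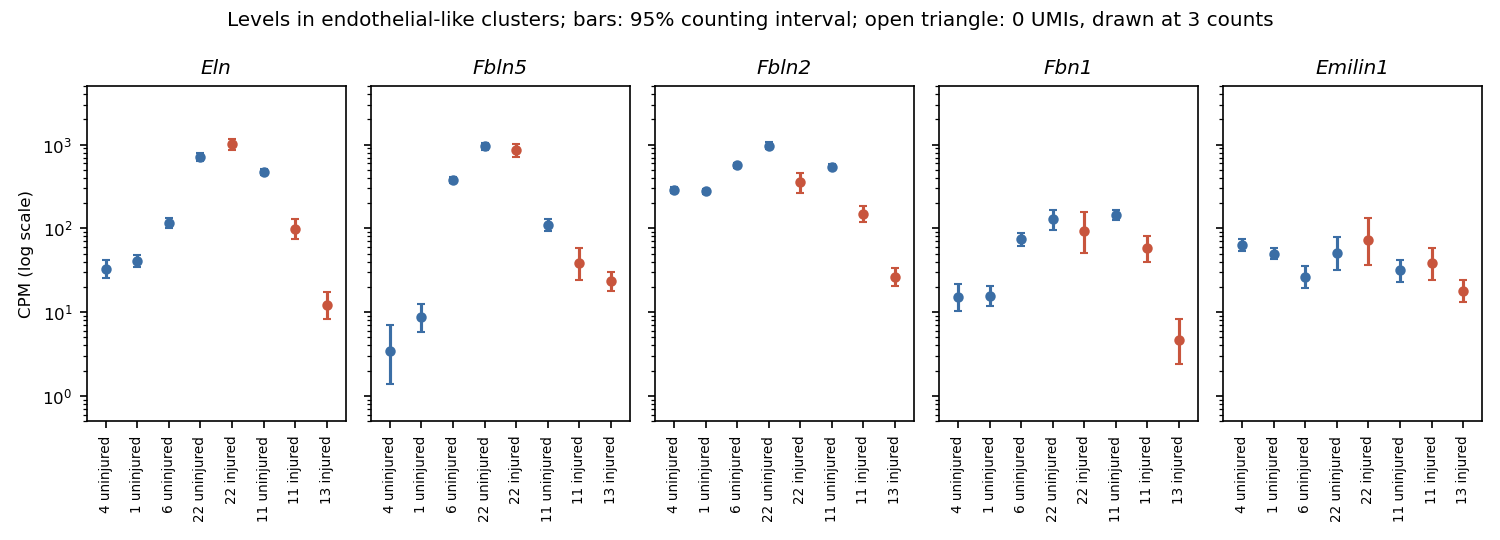
CPM (log scale) of Eln, Fbln5, Fbln2, Fbn1 and Emilin1 in endothelial-like clusters; blue is uninjured, red injured, and bars are 95% counting intervals. Eln and Fbln5 peak in cluster 22 in both libraries (713 and 1004 CPM for Eln), and the injured cluster 13 lies below the uninjured clusters 1, 4, 6, 11 and 22 for Eln and Fbln2 but above clusters 1 and 4 for Fbln5 (23.4 CPM).

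The wider pathway was counted from 4 lists. Of assembly partners such as latent TGF-beta binding proteins and ADAMTS-like proteins, 15 of 19 tested were lower and 1 higher in FAP-like cells (median log2 ratio -1.96), 12 of 18 lower and 1 higher in tenocyte-like cells, and 7 of 13 lower and 2 higher (Emilin2 and Efemp2) in endothelial-like cells. The shares of all genes to set beside the counts of the 4 lists are 29.3% lower and 14.7% higher in FAP-like, 20.9% and 9.71% in tenocyte-like, and 20.4% and 10.5% in endothelial-like cells. Mfap2, which encodes MAGP-1, was at 251 CPM and 18.5 CPM in FAP-like cells, 13.6-fold lower (11.2 to 16.6), and 9.36-fold lower (7.64 to 11.6) in tenocyte-like cells. Ltbp4, needed for elastin assembly with Fbln5, was 7.81-fold lower in FAP-like, 3.76-fold lower in tenocyte-like and 3.35-fold lower in endothelial-like cells. Adamtsl4 was 15.6-fold and Hmcn1 11.3-fold lower in FAP-like cells. The gene higher in both stromal classes was Ltbp2, which binds microfibrils, at 3.11 CPM and 19.1 CPM in FAP-like and 12.7 CPM and 30.2 CPM in tenocyte-like cells.

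In tenocyte-like cells Fbn2, which encodes fibrillin-2, was at 38.1 CPM and 1.46 CPM (90 and 3 UMIs), and the interval of the fold was 8.62 to 129; the fibulin Fbln7 was 7.36-fold lower. Itga8, an integrin subunit, had 59 and 2 UMIs there, 25.6-fold lower (6.77 to 216). Mmrn2 was also lower in both stromal classes, but it was over 10 times higher in endothelial-like cells, so its stromal value is read as background.

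Of the other cross-linking genes and their activators, 4 of 8 were lower and 2 higher (Loxl4 and Tll1, both under 6 CPM) in FAP-like cells, and 5 of 7 lower and 0 higher in tenocyte-like cells. Loxl2 was at 193 CPM and 43.1 CPM in FAP-like cells, 4.48-fold lower (3.90 to 5.17), and at 273 CPM and 46.3 CPM in tenocyte-like cells, 5.90-fold lower (4.75 to 7.39). Its direction was opposite to that of Lox. Pcolce, an enhancer of procollagen processing, was 4.13-fold and 3.46-fold lower, and Bmp1, a protease that activates pro-LOX, 4.52-fold and 3.70-fold lower. In endothelial-like cells 2 of 6 were lower (Bmp1 and Pcolce2) and 0 higher, where 20.4% of all genes were lower.

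Of elastin-degrading proteases, 5 of 7 were lower and 2 higher (Ctss and Mmp9) in FAP-like cells, 3 of 5 lower and 1 higher in tenocyte-like cells, and 2 of 6 lower and 3 higher (Mmp9, Ctss and Mmp14) in endothelial-like cells, the class where 20.4% of all genes were lower and 10.5% higher. Mmp2, a gelatinase that also cleaves elastin, was at 804 CPM and 144 CPM in FAP-like cells, 5.57-fold lower (5.17 to 6.00). Mmp14 was 2.49-fold lower in FAP-like and 2.39-fold lower in tenocyte-like cells, but higher in endothelial-like cells, at 11.1 CPM and 155 CPM (log2 ratio 3.81). Ctss was higher in all 3 classes, at up to 32.7 CPM, while injured macrophages held 1585 CPM of it, so this gene is read as background in the stroma. Mmp9 was among the leading genes of the neutrophil cluster 25, with 0 uninjured and 80 injured cells. Whether its FAP-like and endothelial-like values are background was not tested. Of cell-surface receptors, 7 of 11 were lower and 1 higher (Itga5) in FAP-like, 6 of 10 lower and 0 higher in tenocyte-like, and 1 of 9 lower (Itgb5) and 2 higher (Itgb3 and Itgav) in endothelial-like cells. The endothelial count of 1 lower lies below the share of all genes, 20.4%.

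In glial-like cells, which wrap nerves, 2 of 6 genes tested were lower and 0 higher, beside 21.7% and 8.54% of all genes. These were Fbln5, at 161 CPM in 250 uninjured and 56.3 CPM in 52 injured cells, and Lox, at 29.4 CPM and 9.94 CPM (21 and 3 UMIs). The class value of Fbln5 depends on 1 cluster, since 79 of its 115 uninjured UMIs came from cluster 23, led by Bche, which held 117 uninjured and 5 injured cells.

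To describe which genes had the most similar distribution, Pearson correlations of log2(CPM + 10) were taken over 15 class-by-library profiles of at least 50 cells, among 3683 genes. The profiles share 2 libraries and their depth, so the values are a description. The closest gene was Cped1 for Eln (r = 0.93), Fstl1 for Fbn1 (0.94), Cilp for Fbln1 (0.99), Nid1 for Fbln2 (0.91), Sec62 for Fbln5 (0.93), Itgbl1 for Mfap4 (0.99), Ndn for Mfap5 (0.93), Plat for Emilin1 (0.91), Thbs4 for Lox (0.96) and Bicc1 for Loxl1 (0.97). Among pairs of the 10 genes the highest value was that of Fbln1 with Mfap4 (0.95), and the lowest that of Fbln5 with Loxl1 (0.14). Eln had low values with both lysyl oxidases, 0.23 with Lox and 0.24 with Loxl1.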

How the data were processed

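The deposited files were raw UMI counts per gene and cell barcode of 2 libraries of 10x 3′ v2 chemistry, made by the authors with Cell Ranger 2.1.1 on mm10 per the submitters' processing notes. Counts of transcript ends do not scale with gene length. With scanpy 1.11.5, barcodes under 200 genes or over 20% mitochondrial UMIs were left out, and so were the 249 and 161 highest Scrublet scores, since Scrublet's own threshold marked 1 barcode per library. Leiden clustering (resolution 1, 30 components, 15 neighbours, seed 0) ran on up to 2000 variable genes without the 10 genes and their lists. Clusters were named from 16 marker lists. Those mixed between types were split at resolution 0.5 and renamed or left out. Shared markers of related types, such as FAP and tenocyte, did not make a cluster mixed. The naming rule was set with the data in view, and the genes and lists were chosen with earlier results of these data known. UMIs were summed per class. Intervals are exact Poisson (CPM), conditional binomial (ratios) and Clopper-Pearson (shares) at 95%. A gene under 3 UMIs in the lower library was set at 3 counts, but not past the level of the other library, for calls and log2 medians. Named genes were all 10, the pathway genes with at least 50 UMIs that led by size in a class, and the genes closest in profile; others, chosen after their values were seen, account for a count or pair with a named gene. Alternatives changed doublet removal, clustering, cell assignment, depth, averaging, centring and the UMI minimum. Scripts were tested on simulated data. Gene positions came from GENCODE vM21, on the same build.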

Additional observations from a re-analysis of the deposited data

Results flagged for a closer look

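Cells that carried markers of both mural and endothelial cells were left out of every comparison, and 1 gene stood out in them. In cluster 8f of the uninjured library (48 cells, led by Sema3g, Casq2, Tbx2 and Gja5) Fbln5 was at 398 CPM on 137 UMIs, above the 11.1 CPM of pericyte and smooth muscle-like cells and the 5.41 CPM of macrophages in the same library. The Gja5-led endothelial-like cluster 22 held 958 CPM. Whether these barcodes hold 1 cell or 2 was not tested.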

How the results depend on the processing

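Of 102 recomputed counts of genes past 2-fold, 90 stayed within 1.5 times of the reported count and 12 moved. Of the recomputed log2 ratios, 265 kept within their counting interval and 75 moved, and 0 called ratios turned sign, though thinning set endothelial Fbln1 to 0. Below 2-fold, the sign turned for Fbln2 in FAP-like cells with the median gene centred (0.07), and in mural cells for Mfap5 among deeper cells (0.15) and for Fbn1 by marker score (-0.66) and with the mixed clusters (-0.66). By marker score of single cells, FAP-like cells had 0 higher genes, endothelial-like cells 4 lower, and mural cells 5 lower of 10 tested, over 313 and 141 cells. With cells thinned to 1800 UMIs, endothelial-like cells had 3 lower. In mural cells the higher count was 1 in place of 0 without doublet removal, at Leiden resolution 2, with only cells of at least the lowest injured UMI count, with thinning, with per-cell means and with a minimum of 1 UMI; the lower count was 2 with that minimum and 2 when the mixed clusters were added. That last setting and the 2 without cluster 16 or 19 were chosen after seeing the data. The cause of these moves was not tested. In tenocyte-like cells Fbln1 lost its call with thinning (log2 -0.64), per-cell means (-0.74) and centring (-0.90), Fbn1 with per-cell means (-0.87), centring (-0.84) and without cluster 19 (-0.96), and Emilin1 with thinning (-0.97). Mfap5 gained one without cluster 19 (-1.30) and among deeper cells (-1.14). No paired analysis was possible because each condition has 1 library. The 33 injured mural cells and 20 injured cells of cluster 22 limit what depth can show there.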

Other observations

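Outside the stroma and vessels, 3 cell groups held 1 or 2 of the genes clearly above the macrophage background. The Bche-led glial-like cluster 23 held Fbln5 at 243 CPM in 117 uninjured cells, with Mfap5 at 1 UMI. Satellite cell-like cells, the muscle stem cells, held Loxl1 at 112 CPM (91.1 to 136) in 250 uninjured cells and Lox at 0 UMIs; the injured library had 10 such cells. An unnamed cluster of 27 uninjured cells, led by Gjb2, Krt19 and Cldn1, held Mfap5 at 1226 CPM and Fbln1 at 540 CPM, with Eln at 1 UMI.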
